A study of Homo sapiens with 8 samples.

Results

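The glycolytic enzymes and the hypoxia-inducible genes of H9 human embryonic stem cells (hESCs) were followed in a crowding experiment and in a knockdown of ETV4. They were a fixed set of 42 genes, found by their symbols, of the 19472 genes in the crowding table and the 19551 genes in the knockdown table. The set held 17 glycolytic enzymes, 4 glucose and lactate transporters, 4 regulators of glycolytic flux, 2 subunits of the hypoxia-inducible factor (HIF) and 15 other genes that HIF is known to induce. H9 is an established hESC line from WiCell, grown here on Matrigel in mTeSR1 or TeSR-E8, both of which keep hESCs undifferentiated. In the crowding experiment, hESCs confined to small Matrigel-coated islands (high density, "crowded" in the labels) were compared with uncrowded hESCs (low density, "small" in the labels), and the question was how crowding changes transcription. In the knockdown experiment, hESCs carrying a short hairpin RNA against ETV4 (shETV4, "ETV4 KD" in the labels) were compared with hESCs carrying a control hairpin (shControl, "Ctrl"). ETV4 is a transcription factor of the ETS family. Each of the 4 groups had 2 libraries of poly-A RNA. Only 1 cell line was used, which of the study's hairpins was sequenced is not given in the sources used here, and the medium of each library is not given either. The labels do not say whether the 2 libraries of a group came from separate cultures, so the p-values measure only the spread between these libraries, which may be technical.

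Glycolysis splits glucose into pyruvate, which is either reduced to lactate by lactate dehydrogenase or passed to mitochondria through pyruvate dehydrogenase. Under normal oxygen, prolyl hydroxylases mark the HIF alpha subunits for destruction. When oxygen is short the alpha subunits persist, pair with a constant beta subunit and bind hypoxia response elements, whose core is RCGTG with A or G as the first base. The targets include most glycolytic enzymes, glucose transporters and genes for mitophagy, blood vessel growth and collagen hydroxylation. HIF is controlled mainly at the protein level, which RNA-seq does not measure. Undifferentiated hESCs are known for a high rate of glycolysis even in air.

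The libraries held 50359703 to 62410168 reads counted on genes in the crowding experiment and 52155822 to 56630652 in the knockdown experiment. The defining markers of undifferentiated hESCs were present in all 8 libraries. Their summed FPKM (read fragments scaled by transcript length and by the mapped reads of a library), over 11 of 11 markers such as POU5F1 and LIN28A, was 3504 to 3630 at low density and 3581 to 3731 at high density, and 2858 to 3063 with shControl and 3135 to 3159 with shETV4. The targeted gene, ETV4, was at 90.8 and 95.1 FPKM with shControl and at 45.6 and 40.9 FPKM with shETV4 (log2 fold change -1.15, SE 0.07, edgeR adjusted p = 0.000160). At low density ETV4 was at 73.2 and 72.6 FPKM and at high density at 54.2 and 53.9 FPKM, a log2 fold change of -0.49. Throughout, a gene was called a differentially expressed gene (DEG), upregulated or downregulated, where the adjusted p of edgeR's quasi-likelihood test was below 0.05 and the absolute log2 fold change was over 0.5. The adjustment (Benjamini-Hochberg) ran over all genes tested in an experiment. With 2 libraries against 2, an exact permutation test of 1 gene cannot give a p below 0.333, so every call rests on the spread estimated across genes.

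In the low-density libraries, 10 of the 42 genes were over 100 FPKM, 15 were between 10 and 100, 13 were between 1 and 10 and 4 were under 1, all in FPKM and thus per transcript length. GAPDH, the enzyme of the NADH-yielding step of glycolysis, was highest at 2366 ± 31.3 FPKM (SD, n = 2). It was followed by the enolase ENO1 at 1016 ± 12.2 FPKM, the lactate dehydrogenase LDHB at 714 ± 35.6 FPKM, the triosephosphate isomerase TPI1 at 437 ± 11.2 FPKM and the pyruvate kinase PKM at 403 ± 1.51 FPKM. These 5 levels did not overlap between neighbours in the order. DDIT4 (10.96 ± 0.50 FPKM), PFKFB3 (10.9 ± 0.75) and BNIP3 (10.3 ± 0.34) lay within their spread of each other, as did EGLN3 and P4HA1 at 9.31 FPKM each. The carbonic anhydrase CA9, a marker of hypoxia in many tissues, had 11 to 46 reads in a library over both experiments, and ANKRD37 had 5 to 36. With shControl, GAPDH was again highest, 11 genes were over 100 FPKM and 2 were under 1. FPKM levels were compared only within an experiment, because the 2 experiments shared no library.

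Crowding changed 10 of the 41 genes that could be tested (24.4%), with 8 upregulated and 2 downregulated. Among all 17672 genes tested, 16.1% were DEGs, 10.7% upregulated and 5.47% downregulated. The upregulated genes were ENO2, SLC16A3, PDK3, BNIP3, BNIP3L, P4HA2, DDIT4 and MXI1, and the downregulated genes were SLC2A1 and ADM. The median log2 fold change over the 41 genes was 0.05, against 0.00 over all genes tested. By adjusted p alone, 16 were higher and 10 lower at high density, against 39.7% of all genes in either direction. Of these 26, 17 passed the adjusted p in each of 4 fits that left out 1 library in turn, and 9 lost it in at least 1.

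**Figure D1:**
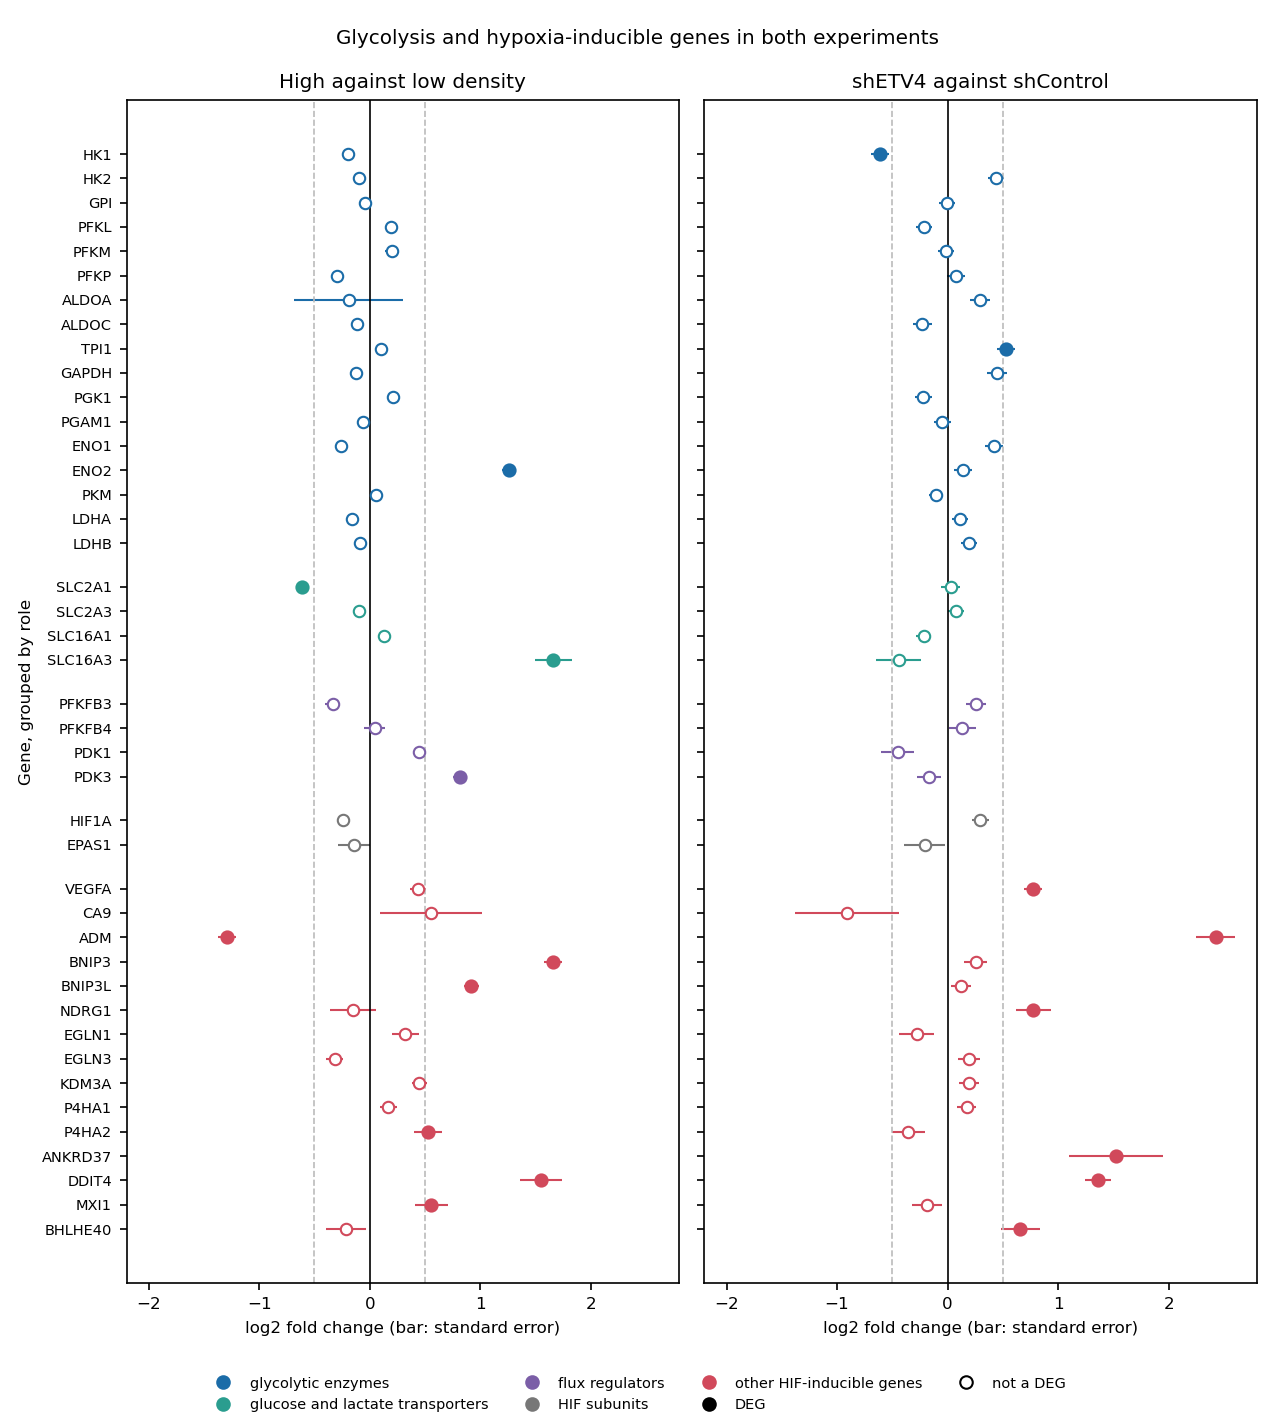
Log2 fold change of each of the 42 genes at high against low density (left) and with shETV4 against shControl (right), grouped by role. Bars are standard errors of the edgeR fit, filled points are DEGs and dashed lines mark the fold threshold of 0.5. After crowding, 1 of 17 enzymes and 6 of 14 other HIF-inducible genes were filled, against 16.1% of all genes tested, and ANKRD37 was not tested there.

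Of the 17 glycolytic enzymes, 1 was upregulated by crowding and none was downregulated, against 10.7% and 5.47% of all genes tested. Their median log2 fold change was -0.09, with 6 above 0 and 11 below. Without low-density replicate 1 or high-density replicate 2 that median was -0.032 or -0.039. The upregulated enzyme was ENO2 (chr12:7022909-7032861, GRCh37), the enolase best known from neurons, which turns 2-phosphoglycerate into phosphoenolpyruvate. ENO2 was at 27.3 and 27.7 FPKM at low density and at 65.7 and 71.2 FPKM at high density. Both crowded libraries were more than 2-fold above both low-density libraries. The fitted change was 2.39-fold (log2 fold change 1.26, SE 0.06, edgeR adjusted p = 1.57e-12). ENO1, the enolase that hESCs mainly express, went the other way by a small amount: it was at 1024 and 1007 FPKM at low density and at 909 and 846 FPKM at high density. That difference passed the adjusted p but not the fold threshold (log2 fold change -0.26, SE 0.04, edgeR adjusted p = 9.45e-05).

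The log2 fold changes of the other enzymes were at most 0.30 in size. Besides ENO1, the adjusted p was passed by 4 enzymes with lower values at high density, the hexokinase HK1 (log2 fold change -0.20), the phosphofructokinase PFKP (-0.30), GAPDH (-0.12) and the lactate dehydrogenase LDHA (-0.16). It was passed by 3 with higher values besides ENO2, the phosphofructokinases PFKL (0.19) and PFKM (0.20) and the phosphoglycerate kinase PGK1 (0.21). None of these 8 reached the fold threshold, and for 6 of them the adjusted p was no longer passed when 1 library was left out. Its largest value was then 0.0799 for HK1, 0.161 for PFKL, 0.244 for PFKM, 0.083 for PGK1, 0.179 for LDHA and 0.209 for GAPDH (edgeR), whose log2 fold change was -0.063 without high-density replicate 2. Of the 8, only ENO1 and PFKP passed in all 4 omissions. HK2, GPI, ALDOC, TPI1, PGAM1, PKM and LDHB lay between -0.11 and 0.10 with edgeR adjusted p from 0.116 to 0.591. The summed FPKM of the 17 enzymes was 6187 and 6042 at low density and 6056 and 5903 at high density, and these ranges overlapped. In terms of libraries, 6 enzymes had FPKM in both crowded libraries above both low-density libraries and 5 had them below. Of all genes tested, 70.2% had groups without overlap, 41.2% higher and 29% lower at high density.

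ALDOA, the main aldolase, needs a caution. Its read counts were split between ALDOA and the overlapping gene model LOC112694756, and the split differed between libraries of 1 group. ALDOA took 98.0% and 63.2% of the locus reads at low density and 53.3% and 98.0% at high density. Its own log2 fold change was therefore -0.19 with an SE of 0.49 (edgeR adjusted p = 0.815). Summed over both gene models, the locus gave 873 and 872 CPM (counts scaled to the library total) at low density and 871 and 830 CPM at high density. The summed log2 fold change was -0.08 with an SE of 0.05 (edgeR adjusted p = 0.206), so the difference was not called either way. In the knockdown libraries ALDOA took 95.7% to 98.1% of the locus reads. The summing was chosen after the values were seen.

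**Figure D2:**
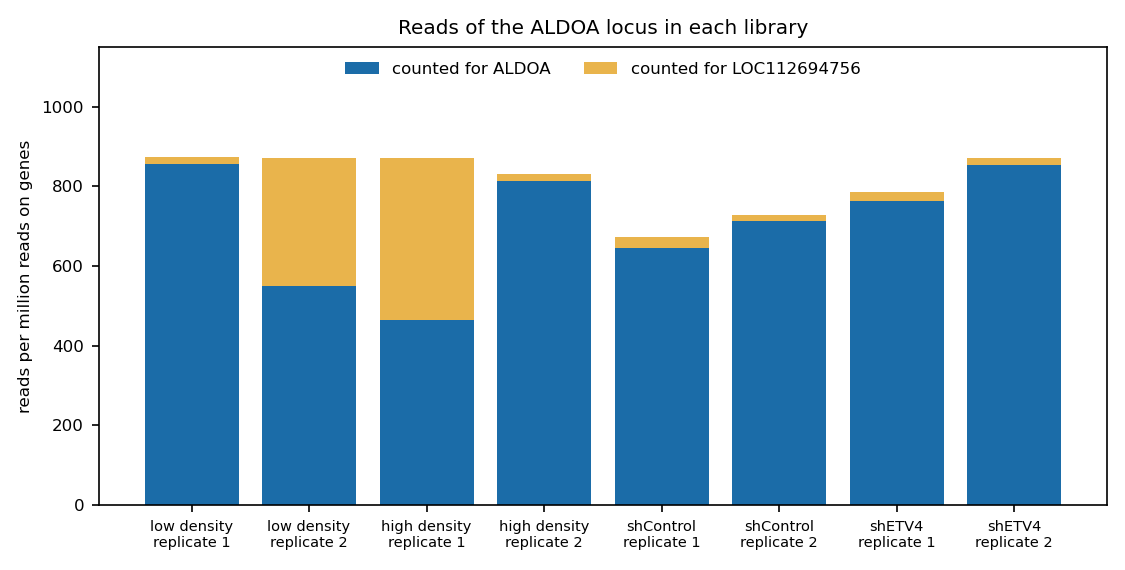
Reads of the ALDOA locus in CPM (stacked bars) in each of the 8 libraries, divided into those counted for ALDOA and those counted for the overlapping LOC112694756. Low-density replicate 2 and high-density replicate 1 show the large second part, while the bar heights of the 4 crowding libraries lie between 830 and 873.

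The transporters moved apart. SLC2A1 (GLUT1; chr1:43391024-43424564, GRCh37), the widely expressed glucose importer, was at 96.4 and 98.6 FPKM at low density and at 68.4 and 64.5 FPKM at high density. Both crowded libraries lay below both low-density libraries, and the gene was downregulated 1.53-fold (log2 fold change -0.61, SE 0.05, edgeR adjusted p = 2.64e-08). SLC2A3 (GLUT3), a high-affinity glucose importer and the more abundant of the pair per length, was at 139 and 138 FPKM and then at 133 and 135 FPKM, which did not pass (log2 fold change -0.10, edgeR adjusted p = 0.1001). SLC16A3 (MCT4; chr17:80175810-80219005, GRCh37) exports lactate from strongly glycolytic cells and was scarce at low density. It was at 1.02 and 1.42 FPKM at low density and at 3.73 and 4.36 FPKM at high density, without overlap, which was a 3.16-fold upregulation (log2 fold change 1.66, SE 0.17, edgeR adjusted p = 1.63e-07). Its span overlaps that of CSNK1D, and strand use in the counting is not given in the sources used here. SLC16A1 (MCT1), the abundant lactate and pyruvate transporter, was at 147 and 149 FPKM and then at 169 in both crowded libraries, which passed the adjusted p only (log2 fold change 0.13, edgeR adjusted p = 0.0304) and lost it without either low-density library (edgeR adjusted p = 0.203 and 0.170).

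Among the flux regulators, the pyruvate dehydrogenase kinases PDK1 and PDK3, which hold pyruvate back from the mitochondria, were higher at high density. PDK3 (chrX:24483361-24568583, GRCh37) was at 3.82 and 3.70 FPKM at low density and at 6.53 and 7.07 FPKM at high density. The groups did not overlap and PDK3 was upregulated 1.76-fold (log2 fold change 0.82, SE 0.06, edgeR adjusted p = 2.22e-09). PDK1 was at 7.78 and 8.25 FPKM and then at 11.8 and 9.95 FPKM, past the adjusted p but under the fold threshold (log2 fold change 0.45, SE 0.06, edgeR adjusted p = 2.86e-06). PFKFB3 and PFKFB4 make and remove fructose 2,6-bisphosphate, the activator of phosphofructokinase. PFKFB3 was lower at high density (log2 fold change -0.33, edgeR adjusted p = 0.000538, under the fold threshold), and PFKFB4 was at 3.4 and 3.46 FPKM and then at 3.65 and 3.74 FPKM (log2 fold change 0.05, edgeR adjusted p = 0.737).

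The HIF subunits themselves were no DEGs. HIF1A, the alpha subunit that made up 98.2% to 98.6% of the summed HIF1A and EPAS1 FPKM in the crowding libraries, was at 73.7 and 73.8 FPKM at low density and at 66.3 and 63.5 FPKM at high density. Both crowded libraries were lower, and the difference passed the adjusted p only (log2 fold change -0.24, SE 0.05, edgeR adjusted p = 0.00117). The antisense genes HIF1A-AS1 and HIF1A-AS2 overlap it. EPAS1, which encodes HIF-2 alpha, was near 1 FPKM in all 4 libraries (log2 fold change -0.14, SE 0.15, edgeR adjusted p = 0.478).

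The other HIF-inducible genes held 5 of the 8 upregulated genes. Of the 14 tested, 5 were upregulated and 1 was downregulated, against 10.7% and 5.47% of all genes tested, and by adjusted p alone 8 were higher and 2 lower. Their median log2 fold change was 0.44, against -0.09 for the enzymes (-0.032 without low-density replicate 1) and 0.00 for all genes tested. The median of 0.44 became 0.32 without high-density replicate 2 and 0.52 without high-density replicate 1. In FPKM, 10 of the 15 were higher in both crowded libraries than in both low-density libraries and 2 were lower, against 41.2% and 29% of all genes tested.

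BNIP3 (chr10:133781188-133795471, GRCh37) and BNIP3L (NIX) encode outer-membrane receptors that direct mitochondria to autophagy. BNIP3 was at 10.1 and 10.5 FPKM at low density and at 30.8 and 36.7 FPKM at high density. Both crowded libraries lay far above the low-density pair, and the fitted change was 3.15-fold (log2 fold change 1.66, SE 0.08, edgeR adjusted p = 8.32e-12). Its span overlaps that of PPP2R2D. BNIP3L was at 8.66 and 8.99 FPKM and then at 16.7 and 18.0 FPKM, again without overlap, a 1.89-fold upregulation (log2 fold change 0.92, SE 0.07, edgeR adjusted p = 1.13e-09).

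DDIT4 (REDD1; chr10:74033678-74035794, GRCh37), an inhibitor of mTORC1 signalling that hypoxia and several other stresses induce, was at 11.3 and 10.6 FPKM at low density and at 27.9 and 39.0 FPKM at high density. The crowded libraries differed between themselves but both lay above the low-density pair, and DDIT4 was upregulated 2.93-fold (log2 fold change 1.55, SE 0.19, edgeR adjusted p = 0.00585). Since DDIT4 also answers to the ATF4 stress response, 7 genes of that response were read beside it. After crowding, DDIT3 (log2 fold change 0.88) and CHAC1 (0.54) were upregulated, while ATF4 (-0.06), ATF3 (0.12) and SESN2 (0.13) did not pass the adjusted p. ASNS (-0.31, edgeR adjusted p = 0.000533) and TRIB3 (-0.35, edgeR adjusted p = 0.0181) were lower, past the adjusted p but under the fold threshold. Of all genes tested, 10.7% were upregulated. These 7 genes, like the other lists, were chosen with earlier results known. Their part in the DDIT4 result was not tested.

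P4HA2 and MXI1 were near the threshold. P4HA2, a subunit of the collagen prolyl hydroxylase, was at 1.36 and 1.23 FPKM at low density and at 1.80 and 2.08 FPKM at high density (log2 fold change 0.52, SE 0.13, edgeR adjusted p = 0.00254). MXI1, an antagonist of MYC, was at 1.58 and 1.53 FPKM and then at 1.98 and 2.78 FPKM (log2 fold change 0.56, SE 0.15, edgeR adjusted p = 0.00586). Neither gene overlapped between groups, which also held for 70.2% of all genes tested, and both calls depended on single libraries. Without high-density replicate 2, the log2 fold change was 0.42 for P4HA2 (edgeR adjusted p = 0.0189) and 0.31 for MXI1 (edgeR adjusted p = 0.135), and without low-density replicate 2 that of P4HA2 was 0.46 (edgeR adjusted p = 0.0405), so none was called.

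ADM (chr11:10326620-10328944, GRCh37) encodes adrenomedullin, a vasodilating peptide and a common marker of hypoxia, and it fell. It was at 45.0 and 48.1 FPKM at low density and at 21.8 and 17.8 FPKM at high density. Both crowded libraries lay far below the low-density pair, and ADM was downregulated 2.45-fold (log2 fold change -1.29, SE 0.08, edgeR adjusted p = 7.26e-09). In these bulk libraries fewer cells with a transcript and less transcript in each cell cannot be told apart.

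The remaining HIF-inducible genes were no DEGs after crowding. The angiogenic factor VEGFA was at 8.91 and 9.07 FPKM and then at 11.6 and 13.4 FPKM, past the adjusted p but under the fold threshold (log2 fold change 0.43, SE 0.07, edgeR adjusted p = 8.63e-05), and without high-density replicate 1 its log2 fold change was 0.53 and it was called, while without high-density replicate 2 it was 0.33. The histone demethylase KDM3A had a log2 fold change of 0.45 (edgeR adjusted p = 3.12e-05), which was 0.50 and called without high-density replicate 1 and 0.396 without high-density replicate 2. Of the oxygen-sensing prolyl hydroxylases, EGLN3 was at -0.32 (edgeR adjusted p = 0.00235) and EGLN1 at 0.32 (edgeR adjusted p = 0.0452). EGLN1 kept the adjusted p in 1 of 4 omissions, and without high-density replicate 2 it was at 0.19 (edgeR adjusted p = 0.323). P4HA1 (0.17), NDRG1 (-0.15), BHLHE40 (-0.21) and CA9 (0.56, SE 0.46) did not pass the adjusted p.

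**Figure D3:**
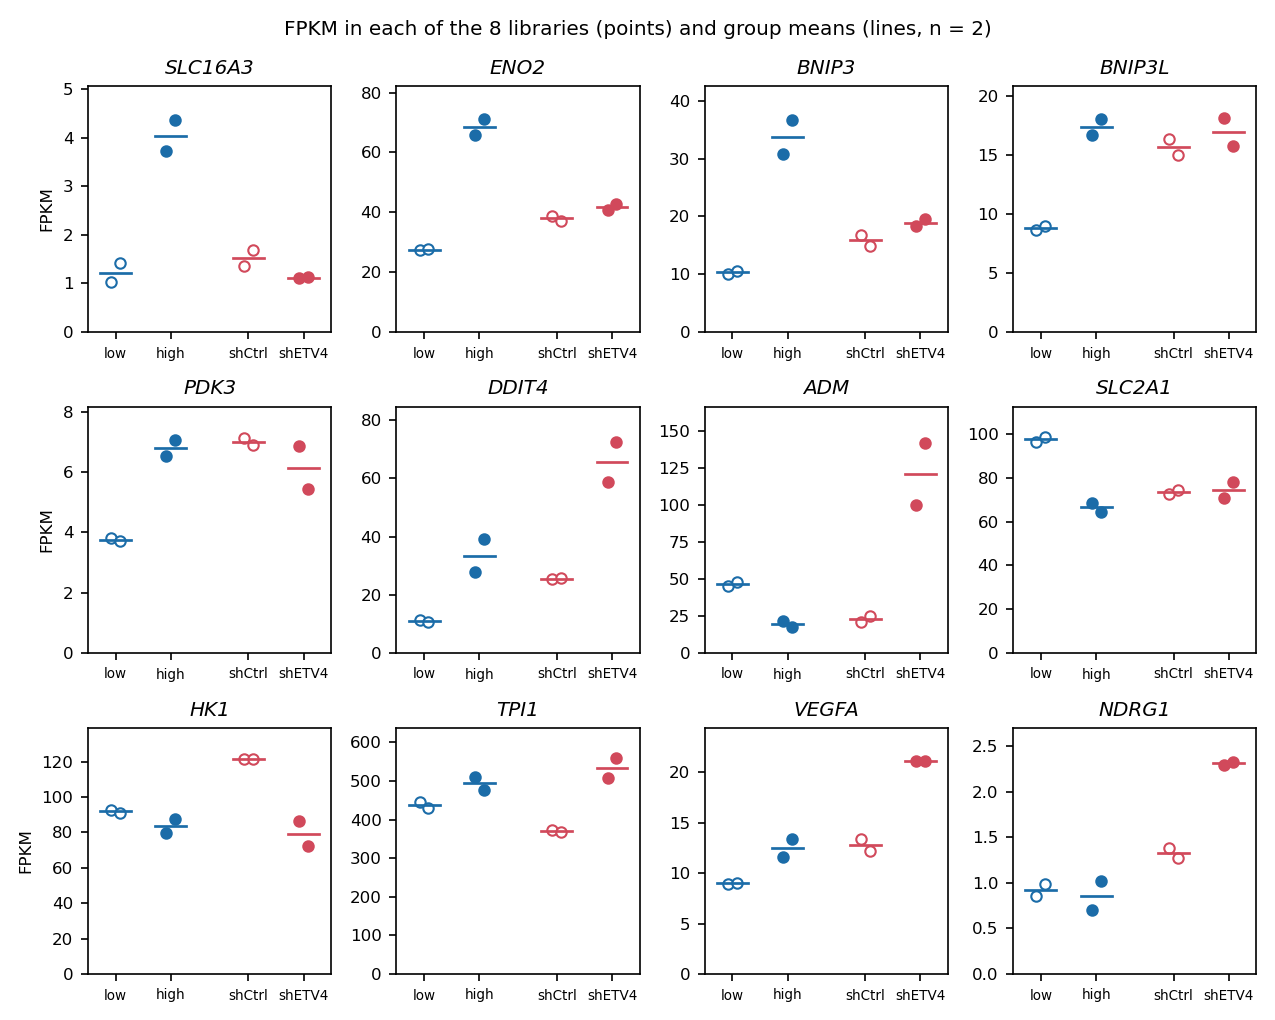
FPKM of 12 of the genes called in either experiment (points are the 8 libraries, lines the means of n = 2, and every axis starts at 0). BNIP3 stood at 10.1 and 10.5 against 30.8 and 36.7 FPKM, while ADM was lower in the high-density libraries and higher in the shETV4 libraries.

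The sequences upstream of 6 genes called after crowding are shown because HIF acts through short elements near the start site. SLC16A3, with the largest increase of the set after crowding, is not among them. RefSeq windows (GRCh38.p14) of the 250 bases before a start site were matched for 37 of the 42 genes, with 67 windows in all, and the 6 windows below were chosen with the values known. Capitals mark every match to the hypoxia response core on either strand, that is ACGTG or GCGTG or their reverse complements CACGT and CACGC, with overlapping matches joined. Sequences run 5′ to 3′ on the strand of the gene and end at the base before the start site.
BNIP3 (chr10:131981924-131982173, - strand): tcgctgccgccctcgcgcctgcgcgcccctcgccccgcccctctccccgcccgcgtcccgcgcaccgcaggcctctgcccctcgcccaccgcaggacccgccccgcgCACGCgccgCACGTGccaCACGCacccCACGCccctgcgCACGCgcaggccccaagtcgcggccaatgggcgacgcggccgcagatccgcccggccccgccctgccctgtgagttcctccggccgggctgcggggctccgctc
ENO2 (chr12:6914330-6914579, + strand): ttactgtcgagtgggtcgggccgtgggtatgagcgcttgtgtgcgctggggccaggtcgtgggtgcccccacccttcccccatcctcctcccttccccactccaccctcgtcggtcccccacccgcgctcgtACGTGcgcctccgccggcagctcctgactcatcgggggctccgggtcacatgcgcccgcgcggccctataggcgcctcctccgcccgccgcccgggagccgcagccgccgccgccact
PDK3 (chrX:24465036-24465285, + strand): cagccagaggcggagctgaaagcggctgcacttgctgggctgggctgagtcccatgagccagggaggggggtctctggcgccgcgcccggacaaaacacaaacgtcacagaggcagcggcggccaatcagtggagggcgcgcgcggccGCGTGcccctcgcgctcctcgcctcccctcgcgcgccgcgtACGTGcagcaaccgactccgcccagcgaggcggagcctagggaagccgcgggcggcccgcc
DDIT4 (chr10:72273674-72273923, + strand): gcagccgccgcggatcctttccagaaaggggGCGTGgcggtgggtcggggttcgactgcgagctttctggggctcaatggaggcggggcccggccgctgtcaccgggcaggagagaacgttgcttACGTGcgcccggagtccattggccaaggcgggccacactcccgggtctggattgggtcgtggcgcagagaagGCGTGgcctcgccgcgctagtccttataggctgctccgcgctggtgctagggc
ADM (chr11:10304823-10305072, + strand): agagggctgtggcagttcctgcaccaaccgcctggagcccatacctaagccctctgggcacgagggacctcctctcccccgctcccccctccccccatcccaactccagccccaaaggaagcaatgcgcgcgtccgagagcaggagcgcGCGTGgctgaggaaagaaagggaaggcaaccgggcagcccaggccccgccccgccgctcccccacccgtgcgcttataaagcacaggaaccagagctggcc
SLC2A1 (chr1:42958869-42959118, - strand): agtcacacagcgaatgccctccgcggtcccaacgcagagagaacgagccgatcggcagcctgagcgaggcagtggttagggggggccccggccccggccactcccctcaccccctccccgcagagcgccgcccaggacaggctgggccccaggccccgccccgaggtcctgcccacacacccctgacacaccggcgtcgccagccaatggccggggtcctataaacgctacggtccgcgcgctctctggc
BNIP3 had 5 separate matches between 104 and 143 bases before its start site, 1 of them the palindrome CACGTG. DDIT4 had 3, PDK3 had 2, ENO2 had 1 and the SLC2A1 window held none of these words. ADM, which was lower in crowded cells, had 1. Such short words are common: 43.2% of all 35116 windows of this length held at least 1. Of the 67 windows of the set, 41 did (61.2%), with 19 of 37 windows of the enzymes (51.4%) and 12 of 15 windows of the other HIF-inducible genes (80%). Of the 13 windows of genes upregulated by crowding, 9 did (69.2%). A gene with several windows counts more than once in these shares. By gene, 6 of 7 upregulated and 1 of 2 downregulated genes with a window held a match in at least 1. The share by gene over all genes was not computed. The word CCGGAA, or its reverse complement TTCCGG, which ETS factors can bind, was in 14 of the 67 windows (20.9%), against 14.5% of all windows. A match is a description of the letters, not evidence of a bound site.

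Genes of the same pathways outside the set are counted for comparison. Of 43 further hypoxia-inducible genes, 42 were tested after crowding, with 8 upregulated, 8 downregulated and a median log2 fold change of 0.07, against 10.7% upregulated and 5.47% downregulated of all genes tested. Those with a mean of at least 1 FPKM included PPFIA4 (log2 fold change 1.49), EFNA3 (1.24) and ZNF395 (0.58) among the upregulated genes, and the growth factor PDGFB (-1.83) and heme oxygenase HMOX1 (-1.01) among the downregulated ones. Of 54 further genes of glucose metabolism, 41 were tested, with 5 upregulated and 1 downregulated (median 0.04), a share close to the 16.1% of DEGs among all genes. They included the D-lactate dehydrogenase LDHD (2.83), the phosphoglucomutase PGM1, which links glycogen with glycolysis (1.27), and the glucose transporters SLC2A4 (0.68) and SLC2A6 (-0.97). Of 17 genes of oxygen sensing and HIF partners, none was upregulated and 1 was downregulated, the ubiquitin ligase SIAH2 (-0.58).

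Markers of other cell types also moved with density and were low next to those of hESCs. Of 8 neuroectoderm markers, 6 had values, with summed FPKM of 88.1 to 89.0 at low density and 66.5 to 75.1 at high density, most of it NES, while PAX6 stayed at or under 0.031 FPKM. Of the 5 tested, 2 had log2 fold changes above 0 and 3 below, NES among the latter (-0.55). OTX2 went from 10.7 and 11.2 FPKM to 18.2 and 13.4 FPKM (log2 fold change 0.47) and was not called. SOX1 was upregulated, but stood at only 0.067 and 0.054 FPKM in the crowded libraries. Of 8 mesendoderm markers, 6 had values, with sums of 4.46 to 4.78 FPKM at low density and 0.97 to 1.20 FPKM at high density. Most of the low-density sum was 1 gene. Of the 4 tested, 1 had a log2 fold change above 0 and 3 below. Sums were 36.03 to 36.5 and then 30.03 to 30.1 FPKM over 3 of 7 fibroblast markers, 2.28 to 2.37 and then 3.19 to 3.25 FPKM over 2 of 7 extraembryonic markers, and at most 1.44 FPKM over 1 of 5 endothelial and blood markers. The part of these cells in the results was not tested.

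After ETV4 KD, 8 of the 42 genes were called (19.0%), with 7 upregulated and 1 downregulated, against 13% of all 17879 genes tested, 5.88% upregulated and 7.1% downregulated. The upregulated genes were TPI1, VEGFA, ADM, NDRG1, ANKRD37, DDIT4 and BHLHE40, and the downregulated gene was HK1. The median log2 fold change was 0.11, against 0.00 over all genes tested. By adjusted p alone 12 were higher and 1 lower with shETV4, against 21.5% of all genes in either direction, and 7 of these 13 passed it in each of the 4 omissions of 1 library. The number of upregulated genes in the set was lower without shControl replicate 2 or without shETV4 replicate 2. The number over all genes tested also moved with the library left out.

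Of the 17 glycolytic enzymes, 1 was upregulated and 1 downregulated after ETV4 KD (11.8% called), close to the 13% of DEGs among all genes tested. The median log2 fold change of the enzymes was 0.08. Without shETV4 replicate 2 that median was -0.01, and without shETV4 replicate 1 it was 0.14. HK1 (chr10:71029740-71161640, GRCh37), the hexokinase that most cells use for the first step of glycolysis, was at 121 and 122 FPKM with shControl and at 86.5 and 72.0 FPKM with shETV4. Both shETV4 libraries were lower, and HK1 was downregulated 1.53-fold (log2 fold change -0.61, SE 0.08, edgeR adjusted p = 0.00293). HK2, the HIF-inducible hexokinase, was at 14.4 and 14.7 FPKM and then at 19.8 and 19.4 FPKM, higher without overlap but under the fold threshold (log2 fold change 0.44, SE 0.07, edgeR adjusted p = 0.00595).

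Of the enzymes of the later steps, TPI1 was upregulated and the others were no DEGs. TPI1 (chr12:6976283-6980112, GRCh37) was at 374 and 367 FPKM with shControl and at 506 and 559 FPKM with shETV4, a 1.44-fold upregulation (log2 fold change 0.53, SE 0.08, edgeR adjusted p = 0.00510). Without shETV4 replicate 2 its log2 fold change was 0.43 and it was not called. GAPDH was at 2150 and 2304 FPKM and then at 2828 and 3210 FPKM, past the adjusted p only (log2 fold change 0.44, edgeR adjusted p = 0.0118). ENO1 (log2 fold change 0.42, edgeR adjusted p = 0.0110) and ALDOA (0.29, edgeR adjusted p = 0.0460) were likewise past the adjusted p but under the fold threshold. Without shETV4 replicate 1, GAPDH (0.56) and ENO1 (0.51) were called, and without shETV4 replicate 2 they were at 0.32 and 0.33. The adjusted p was lost without shControl replicate 1 for ENO1 (edgeR adjusted p = 0.0667) and in 3 of 4 omissions for ALDOA, at most at 0.365. PGK1 (-0.22), PKM (-0.11) and PGAM1 (-0.05) had values below 0 that did not pass. GAPDH, ENO1 and TPI1 have processed pseudogenes and TPI1 overlaps SPSB2, so some of their reads may be shared with other gene models. The remaining enzymes lay between -0.23 and 0.19 with edgeR adjusted p from 0.0734 to 0.955. The summed FPKM of the 17 enzymes was 5399 and 5770 with shControl and 6568 and 7210 with shETV4, without overlap, and GAPDH and ENO1 were the largest part.

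No transporter and no flux regulator was a DEG after ETV4 KD, and by adjusted p alone none of these 8 genes passed. Of all genes tested, 13% were DEGs and 21.5% passed the adjusted p. SLC2A1 was at 72.3 and 74.2 FPKM and then at 70.9 and 77.9 FPKM (log2 fold change 0.03, SE 0.08, edgeR adjusted p = 0.839). SLC16A3 was at 1.37 and 1.69 FPKM and then at 1.10 and 1.13 FPKM (log2 fold change -0.44, SE 0.20, edgeR adjusted p = 0.155). PDK1 was at 6.4 and 7.71 FPKM and then at 5.57 and 4.85 FPKM (log2 fold change -0.45, SE 0.15, edgeR adjusted p = 0.0652). The SLC16A3 and PDK1 groups did not overlap, yet neither passed, and 63.3% of all genes had groups without overlap. PDK1 was called without shControl replicate 2 (log2 fold change -0.56, edgeR adjusted p = 0.00483) and without shETV4 replicate 1 (-0.72, edgeR adjusted p = 0.000636), but it was at -0.23 without shETV4 replicate 2 (edgeR adjusted p = 0.138) and at -0.34 without shControl replicate 1 (edgeR adjusted p = 0.167). HIF1A was at 65.7 and 61.8 FPKM with shControl and at 81.6 and 74.8 FPKM with shETV4, past the adjusted p only (log2 fold change 0.30, SE 0.07, edgeR adjusted p = 0.0245). Without shControl replicate 1 or 2 it did not pass (edgeR adjusted p = 0.0997 and 0.265).

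Of the 15 other HIF-inducible genes, 6 were upregulated after ETV4 KD and none was downregulated, against 5.88% and 7.1% of all genes tested. Their median log2 fold change was 0.19. In FPKM, 10 were higher in both shETV4 libraries than in both control libraries and 3 were lower, against 31.8% and 31.5% of all genes tested. ADM had the largest change of the whole set. It was at 20.8 and 24.7 FPKM with shControl and at 100 and 142 FPKM with shETV4. Both shETV4 libraries were more than 4-fold above both control libraries, and the fitted change was 5.37-fold (log2 fold change 2.43, SE 0.17, edgeR adjusted p = 0.000234).

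DDIT4 was at 25.3 and 25.8 FPKM with shControl and at 58.7 and 72.4 FPKM with shETV4, a 2.58-fold upregulation without overlap (log2 fold change 1.37, SE 0.12, edgeR adjusted p = 0.000534). Of the 7 ATF4-response genes read beside it, 6 were upregulated, against 5.88% of all genes tested: DDIT3 (log2 fold change 2.26), TRIB3 (2.13), CHAC1 (1.17), SESN2 (1.00), ATF3 (0.80) and ASNS (0.71). ATF4 RNA itself was at 0.26 (edgeR adjusted p = 0.0517). Their part in the DDIT4 result was not tested. VEGFA (chr6:43737921-43754224, GRCh37) was at 13.3 and 12.2 FPKM and then at 21.1 and 21.2 FPKM, 1.71-fold higher (log2 fold change 0.78, SE 0.08, edgeR adjusted p = 0.00107).

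The other 3 upregulated genes were expressed at low levels and each depended on single libraries. NDRG1, a stress-responsive gene, was at 1.38 and 1.27 FPKM with shControl and at 2.29 and 2.33 FPKM with shETV4 (log2 fold change 0.78, SE 0.16, edgeR adjusted p = 0.0126). BHLHE40 (DEC1), a transcriptional repressor, was at 1.66 and 1.47 FPKM and then at 2.20 and 2.73 FPKM (log2 fold change 0.66, SE 0.18, edgeR adjusted p = 0.0323). ANKRD37, an ankyrin repeat gene induced by HIF-1, was at 0.202 and 0.268 FPKM and then at 0.606 and 0.771 FPKM, from 10 to 36 reads (log2 fold change 1.53, SE 0.43, edgeR adjusted p = 0.0372). None of the 3 overlapped between groups, which also held for 63.3% of all genes tested. The spans of BHLHE40 and ANKRD37 overlap those of other genes. Without shControl replicate 2 the adjusted p was 0.0670 for NDRG1, 0.137 for BHLHE40 and 0.0705 for ANKRD37 (edgeR). Without shETV4 replicate 2 it was 0.0936 for BHLHE40 and 0.129 for ANKRD37, and without shControl replicate 1 it was 0.223 for ANKRD37.

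BNIP3 and BNIP3L did not pass after ETV4 KD. BNIP3 was at 16.8 and 14.95 FPKM with shControl and at 18.2 and 19.5 FPKM with shETV4 (log2 fold change 0.25, SE 0.11, edgeR adjusted p = 0.121), and BNIP3L was at 16.3 and 14.98 FPKM and then at 18.1 and 15.8 FPKM (0.12, SE 0.09, edgeR adjusted p = 0.377). EGLN3, KDM3A and P4HA1 had log2 fold changes between 0.17 and 0.19. Those of MXI1, EGLN1 and P4HA2 were -0.18, -0.28 and -0.35, and CA9 was at -0.91 with an SE of 0.47. None of these 7 passed the adjusted p.

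Outside the set, 42 of 43 further hypoxia-inducible genes were tested after ETV4 KD, with 4 upregulated, 6 downregulated and a median log2 fold change of 0.01, against 5.88% upregulated and 7.1% downregulated of all genes tested. The lipid droplet protein PLIN2 (log2 fold change 0.79) and CITED2 (0.62), which competes with HIF for its coactivator, were among the upregulated genes. PPFIA4 (-1.10), the lysyl hydroxylase PLOD1 (-0.74) and the adenylate kinase AK4 (-0.72) were downregulated. Among 43 tested genes of glucose metabolism, 3 were upregulated and 3 downregulated, a share close to the 13% of DEGs among all genes. The former were PCK2 (0.79), of mitochondrial gluconeogenesis, the mitochondrial pyruvate carrier subunit MPC1 (0.70) and RPIA (0.56), of the pentose phosphate pathway. The latter included PGM1 (-0.84). None of the 17 genes of oxygen sensing and HIF partners was a DEG by edgeR's quasi-likelihood test, and none passed the adjusted p.

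Summed FPKM over 6 of 8 neuroectoderm markers was between 46.6 and 52.3 with shControl and between 74.2 and 83.0 with shETV4, most of it NES and OTX2. That over 5 of 7 fibroblast markers was between 34.9 and 36.9 and then between 51.9 and 55.8, most of it COL1A1. Of the 4 fibroblast markers tested, 1 had a log2 fold change above 0, COL1A1 (1.00), and 3 were below. COL1A2 went from 12.9 and 14.0 FPKM to 10.4 and 8.63 FPKM (log2 fold change -0.496), under the fold threshold. The sum over 4 of 8 mesendoderm markers was 2.17 to 3.16 FPKM with shControl and 1.32 to 1.94 FPKM with shETV4. With shControl most of it was 1 gene. Of the 2 tested, 1 had a log2 fold change below 0 and 1 above, MIXL1 (0.39), which was not called. Over 3 of 7 extraembryonic markers it was 2.41 to 3.32 and then 2.20 to 2.52 FPKM, and over 2 of 5 endothelial and blood markers it was at most 1.04 FPKM. Of the 11 hESC markers, LIN28A was upregulated and TDGF1 and DNMT3B were downregulated. Whether these shifts bear on the HIF-inducible genes was not tested.

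The 2 effects were then compared gene by gene in 1 fit of all 8 libraries, as the crowding log2 fold change minus the ETV4 KD log2 fold change. The experiments shared no library. The difference was called for 19 of the 42 genes, with 9 higher under crowding and 10 lower, against 27.5% of 17790 genes tested, 15% higher and 12.5% lower. By adjusted p alone, 38.5% of all genes differed, and 28 of the 42 genes did, 21 of them in each of the 8 omissions. Over the 41 genes tested in both experiments, 14 had the same sign and 27 opposite signs. Pearson's r across these genes was -0.27 and Spearman's rho was -0.32, against -0.20 and -0.21 over 17206 genes, of which 41.7% had the same sign. Genes are not independent replicates, so these are descriptions.

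**Figure D4:**
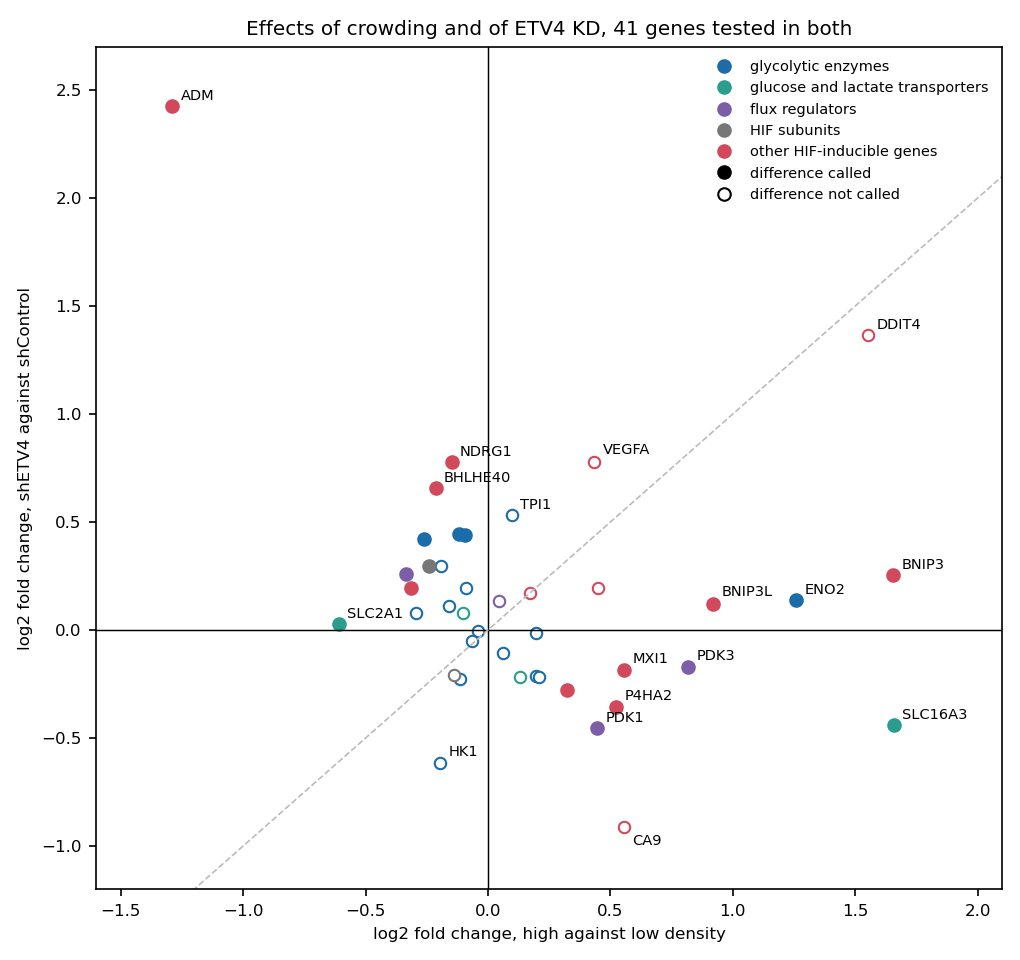
Log2 fold change at high against low density (x axis) and with shETV4 against shControl (y axis) for the 41 genes tested in both experiments, with filled points where the difference between the effects was called. The dashed line marks equal effects. DDIT4, at 1.55 and 1.37, lies near it, and ADM, at -1.29 and 2.43, lies farthest from it.

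ADM differed most, down 2.45-fold in crowded hESCs and up 5.37-fold after ETV4 KD (difference -3.72, SE 0.27, edgeR adjusted p = 4.82e-05). Among the enzymes, 4 differences were called, and 3 were lower under crowding, for HK2 (-0.54), GAPDH (-0.57) and ENO1 (-0.69), while ENO2 was higher (1.11, SE 0.10, edgeR adjusted p = 1.06e-05). The lactate exporter SLC16A3 (2.09, SE 0.27, edgeR adjusted p = 0.000137) and the kinases PDK1 (0.89) and PDK3 (0.98) were higher under crowding. BNIP3 (1.40, SE 0.14, edgeR adjusted p = 2.44e-05) and BNIP3L (0.79) were too. DDIT4 was upregulated in both experiments, and its difference was 0.18 with an SE of 0.21 (edgeR adjusted p = 0.538), which does not show that the effects are equal. No other gene of the set was a DEG in the same direction in both. VEGFA was called only after ETV4 KD, but its difference of -0.35 (SE 0.11, edgeR adjusted p = 0.0256) stayed under the fold threshold and lost the adjusted p in 4 of 8 omissions, so its effects are not called different. The HK1 difference of 0.41 (edgeR adjusted p = 0.00719) and the TPI1 difference of -0.44 (edgeR adjusted p = 0.00440) were under the fold threshold too. Both passed it without shETV4 replicate 1, at 0.52 and -0.54, and were at 0.315 and -0.331 without shETV4 replicate 2. With both gene models summed, the ALDOA difference was -0.38 (SE 0.10, edgeR adjusted p = 0.0110).

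Within families of enzymes and proteins that do the same step, the mix shifted in each experiment. ENO2 went from 2.59% and 2.67% of summed enolase FPKM at low density to 6.74% and 7.76% at high density, so that ENO1 still made up over 92% in every library. With shControl it was 4.71% and 4.19%, and with shETV4 it was 3.76% and 3.66%. SLC16A3 went from 0.69% and 0.94% of the 2 lactate transporters to 2.16% and 2.52% with crowding. SLC2A1 went from 41.02% and 41.6% of the 2 glucose importers to 33.9% and 32.3%.

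PFKP gave 51.3% of phosphofructokinase FPKM in both low-density libraries and 43.4% and 42.5% at high density, with PFKL and PFKM taking up the rest. BNIP3 went from 53.7% and 53.9% of the BNIP3 and BNIP3L sum to 64.9% and 67.0%. After ETV4 KD the clearest shift was in the hexokinases, where HK2 went from 10.6% and 10.8% to 18.6% and 21.2%. In crowding, HK2 made up 18.5% and 17.8% at low density and 20.5% and 18.1% at high density, which overlapped. LDHA made up 22.2% to 23.8% of lactate dehydrogenase FPKM over the 4 crowding libraries and 15.3% to 16.5% over the 4 knockdown libraries, which shared no library. These shares are descriptions and were not tested.

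**Figure D5:**
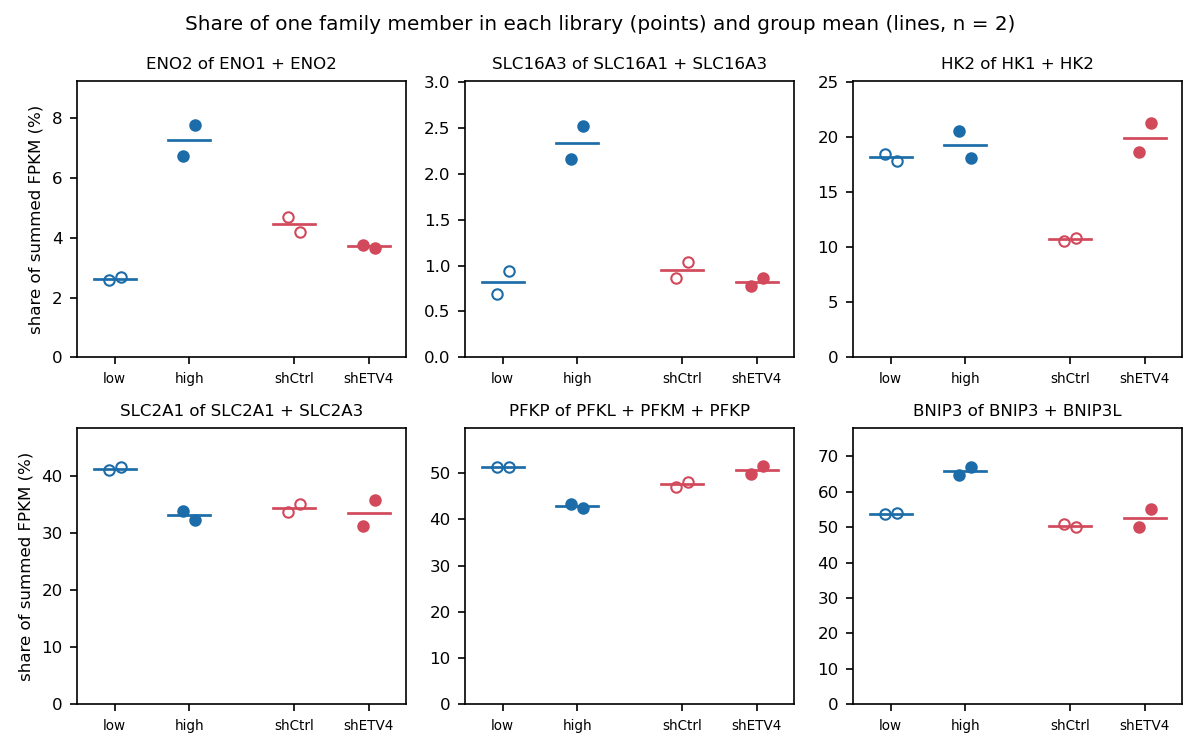
Share of 1 family member in the summed FPKM of its family (y axis, percent, from 0) in each of the 8 libraries (points), with the mean of each group (lines, n = 2). The ENO2 and SLC16A3 shares were higher in both high-density libraries, and the HK2 share was higher in both shETV4 libraries.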

How the data were processed

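RNA was sequenced in 8 libraries of H9 hESCs. Per the labels and the methods, the authors used a stranded poly-A kit, trimmed reads with Trimmomatic, aligned them with HISAT2 2.1.0 to GRCh37 and assembled transcripts with StringTie 2.1.3b. They deposited 1 table per experiment, with raw read counts and FPKM per gene, each table normalized separately. Use of strand in the counting is not given in the sources used here. Every row has at least 1 read in each of its 4 libraries, so a gene at 0 in any library of an experiment has no row. The authors' fold changes and p-values and 16 further per-sample columns (such as TPM) were not used.

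The robust quasi-likelihood test of edgeR 4.0.16 (R 4.3.3) was run on the counts after TMM scaling and the filterByExpr filter, with Benjamini-Hochberg adjustment over all genes tested, 1 experiment at a time and once jointly for the difference. Standard errors are the log2 fold change over the square root of F. The biological coefficient of variation was 6.83% for crowding and 9.93% for ETV4 KD. Alternatives used DESeq2 1.42.0 and limma 3.58.1. The script was tested on simulated counts. All 42 genes are named. Of each list of other genes, up to 3 DEGs a direction with the largest change and a mean of at least 1 FPKM are named, except genes that are not reported here. The genes and all lists were chosen with earlier results of these data known. Gene spans (GRCh37) are from GENCODE, and promoter windows (GRCh38.p14) are from RefSeq.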

Additional observations from a re-analysis of the deposited data

Results flagged for a closer look

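The effects of crowding and of ETV4 KD differed for 19 of the 42 genes in the joint edgeR fit of all 8 libraries. Values are the crowding log2 fold change minus the ETV4 KD log2 fold change.

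The difference was above 0 for 9 genes. It was 2.09 for SLC16A3, 1.40 for BNIP3, 1.11 for ENO2, 0.98 for PDK3, 0.89 for PDK1, 0.87 for P4HA2, 0.79 for BNIP3L, 0.73 for MXI1 and 0.59 for EGLN1. These include both mitophagy receptors and both pyruvate dehydrogenase kinases of the set. SLC16A3, PDK1, PDK3, P4HA2, MXI1 and EGLN1 had opposite signs in the 2 experiments, while BNIP3, BNIP3L and ENO2 had positive values in both.

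The difference was below 0 for 10 genes. It was -3.72 for ADM, -0.93 for NDRG1, -0.88 for BHLHE40, -0.69 for ENO1, -0.64 for SLC2A1, -0.60 for PFKFB3, -0.57 for GAPDH, -0.54 for HK2, -0.54 for HIF1A and -0.52 for EGLN3. All 10 had a negative log2 fold change after crowding and a positive one after ETV4 KD. Not each of these values passed the test in its own experiment, and only ADM was a DEG in both. SLC2A1 was at 0.03 after ETV4 KD (edgeR adjusted p = 0.839) and NDRG1 at -0.15 after crowding (edgeR adjusted p = 0.609). Both signs changed when a library was left out. The genes above and below 0 were selected by the difference, which favours opposite signs. The share of such signs over all genes called was not computed. ETV4 RNA was lower in both experiments, with log2 fold changes of -0.49 at high density and -1.15 with shETV4.

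Several of these calls depended on 1 library. The difference was not called for HK2 without high-density replicate 2 (-0.48) or low-density replicate 1 (-0.49), for GAPDH without shETV4 replicate 2 (-0.44) and for HIF1A without shControl replicate 2 (-0.49). NDRG1 and BHLHE40 were lost in 3 of 8 omissions each, EGLN3 and MXI1 in 4 and EGLN1 in 5. The remaining 11 genes were called in all 8 omissions.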

How the results depend on the processing

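Depth limits CA9 and ANKRD37, with at most 46 and 36 reads in a library. ENO2, SLC16A3, ADM, BNIP3 and DDIT4 after crowding and ADM and DDIT4 after ETV4 KD were called under every alternative run. SLC2A1, PDK3, BNIP3L, HK1 and VEGFA were lost only at an absolute log2 fold change over 1. P4HA2 and MXI1 were also not called with limma on log2(FPKM + 0.5) or log2(FPKM + 1), nor without its filter, BHLHE40 not with limma on log2(FPKM + 1) or without the filter, and ANKRD37 not with DESeq2. No scaling moved the median of all genes by over 0.1.

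Crowding gave 1184 upregulated and 540 downregulated DEGs with limma on log2(FPKM + 0.5), 626 downregulated with a pseudocount of 0.1, 850 and 422 with a pseudocount of 1, and 1238 and 538 without a filter. ETV4 KD gave 624 and 701 with a pseudocount of 1 and 534 and 518 without a filter. Over an absolute log2 fold change of 1 there were 800 and 335 DEGs after crowding, 4 and 1 of them in the set, and 324 and 437 after ETV4 KD, 3 and 0 of them in the set. By adjusted p alone there were 3432 and 3584 (16 and 10 in the set) after crowding and 1901 and 1946 (12 and 1) after ETV4 KD. With limma on log2(FPKM + 0.5), the crowding medians were -0.029 for the enzymes, 0.0719 for the transporters and -0.12 for the HIF subunits. GPI after crowding was 0.0153, 0.0152 and 0.0151 with pseudocounts of 0.1, 0.5 and 1, and PFKM after ETV4 KD was 0.00802, 0.0079 and 0.00776, with the same values at 0.5 without a filter and against -0.041 and -0.0141 in edgeR. The cause was not tested.

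Leaving out each library in turn gave 4 to 9 upregulated and 1 to 2 downregulated genes of the set after ETV4 KD. The number of DEGs over all genes tested also moved with the library left out. The medians were -0.11 to -0.0322 for the enzymes and 0.0137 to 0.0192 for the transporters after crowding. After ETV4 KD they were -0.012 to 0.14 for the enzymes, -0.13 to -0.0784 for the transporters and 0.20 to 0.27 for the other HIF-inducible genes. Signs changed only for genes that were not called. After crowding these were ALDOA (-0.63 to 0.17), NDRG1 (-0.45 to 0.0961) and GPI (-0.0924 to 0.0132). After ETV4 KD they were PFKM (-0.0405 to 0.0153), GPI (-0.0473 to 0.0346), PGAM1 (-0.12 to 0.0231), SLC2A1 (-0.0729 to 0.12) and PFKP (-0.012 to 0.17). For the difference between the effects they were P4HA1 (-0.0878 to 0.0665), GPI (-0.093 to 0.0141), PGAM1 (-0.0945 to 0.0562), EPAS1 (-0.12 to 0.27) and DDIT4 (-0.0736 to 0.40).

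The labels number the libraries in each group. Deviations of same-numbered libraries correlated at -0.04 in the crowding experiment and 0.09 in the knockdown experiment. With 2 libraries a group, these values cannot show whether same-numbered libraries shared a culture or a batch. With replicate number as a block, crowding gave 1893 upregulated and 981 downregulated DEGs, against 1884 and 967 without it. ETV4 KD gave 1255 and 1646 with the block, against 1052 and 1269 without it. The difference gave 5056 called genes with the block, 19 of them in the set, against 4890 genes without it. In the set, 8 and 2 genes were called after crowding and 7 and 1 after ETV4 KD with the block.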
